A study of Mus musculus with 6 samples.

Results

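The FGF receptors and the genes of the ERK feedback loop were followed in lenses of newborn mice. They comprise 10 genes, namely the receptors Fgfr1, Fgfr2 and Fgfr3, the inhibitors Spry1, Spry2, Spry4 and Spred1, the phosphatase Dusp6 and the transcription factors Etv4 and Etv5. They were chosen by name, and every probe set annotated to one of them alone was taken, which gave 18 of the 22626 probe sets tested, and 10 of 12393 genes. Total RNA came from lenses dissected from Le-AP-2alpha conditional mutants, which carry a targeted gene of the transcription factor AP-2alpha (Tfap2a, formerly Tcfap2a), and from their wild-type littermates, all newborn. It was amplified, labelled with biotin and hybridised to one-colour oligonucleotide arrays, 3 for mutants and 3 for wild types. The prefix Le in the sample titles is that of Le-Cre, a line in which a Pax6 promoter drives Cre in the surface ectoderm that forms the lens and the corneal epithelium. The labels do not spell out this driver, the deleted part of the gene or the strain. Whether a sample holds 1 animal or pooled animals is not stated either, and p-values therefore refer only to the spread among these 6 samples.

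Fibroblast growth factors bind receptor tyrosine kinases on the cell surface, with heparan sulfate as a cofactor, and the active receptor passes its signal through RAS to the kinase ERK. ERK switches on genes that include its own inhibitors, so that transcripts of the Sprouty and Spred families, Dusp6, Etv4 and Etv5 are widely used as readouts of the pathway. In the lens, FGF signalling drives epithelial cells to leave the cell cycle, elongate and become fibre cells.

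No receptor or feedback gene differed between mutant and wild-type lenses beyond the spread of the arrays. Of the 18 probe sets, 0 passed limma's test at an adjusted p under 0.05, beside 0.0% of all probe sets. An unadjusted p under 0.05 was reached by 0 as well, beside 3.28% of all. The arrays of mutants and wild types were apart in 0 of the 18, beside 8.36% of all probe sets, and 18 are too few to tell these shares apart. Differences ran from -0.58 to 0.65 on the log2 scale, mutant minus wild type, with 12 probe sets higher and 6 lower. The median over the 18 was 0.08, beside -0.02 over all probe sets. The 95% interval of the limma fit included 0 for all 18, and for 12 of them it reached a log2 difference of 1 in size, so changes of that size lay within what these arrays allow. With array weights, an alternative fit, limma called 0.0309% of all probe sets and 0 of the 18.

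Wild-type replicate 1 stood apart from the other arrays before any gene was considered. Its Pearson correlation across probe sets with the other arrays was 0.926 to 0.945, against 0.974 to 0.985 among those 5, while medians of the arrays were alike (5.19 to 5.32). It carried the lowest value of the 6 arrays in 9 of the 18 probe sets (50%), beside 24.2% of all probe sets, and in 6 of the 8 that were brighter than the median probe set, beside 33.9% of all such probe sets. By brightest probe set it was the lowest array for 6 of the 10 genes. It carried the highest value in 2 of the 18, beside 32.2% of all probe sets. Both were among the 8 brighter ones, beside 35.1% of all such probe sets. Differences without it are therefore given for all 10 genes, and elsewhere for a part of the counts and named values. Values given only with all arrays may move with it too. Tfap2a itself was at 9.57, 9.64 and 9.83 in mutants, against 8.36, 9.26 and 9.56 in wild types on its brightest probe set. All 3 Tfap2a probe sets had higher means in mutants, by 0.62 ± 0.33 (SE) on that one and by 0.36 ± 0.36 and 1.57 ± 0.49 on the others, and by 0.27, 0.53 and 1.25 without wild-type replicate 1. On the brightest probe set every mutant was above every wild type, though narrowly (9.57 against 9.56). The groups overlapped on the others, and limma called none (adjusted p = 0.999). This does not check the deletion, since the position of the probes relative to the deleted part is not known here.

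**Figure D1:**
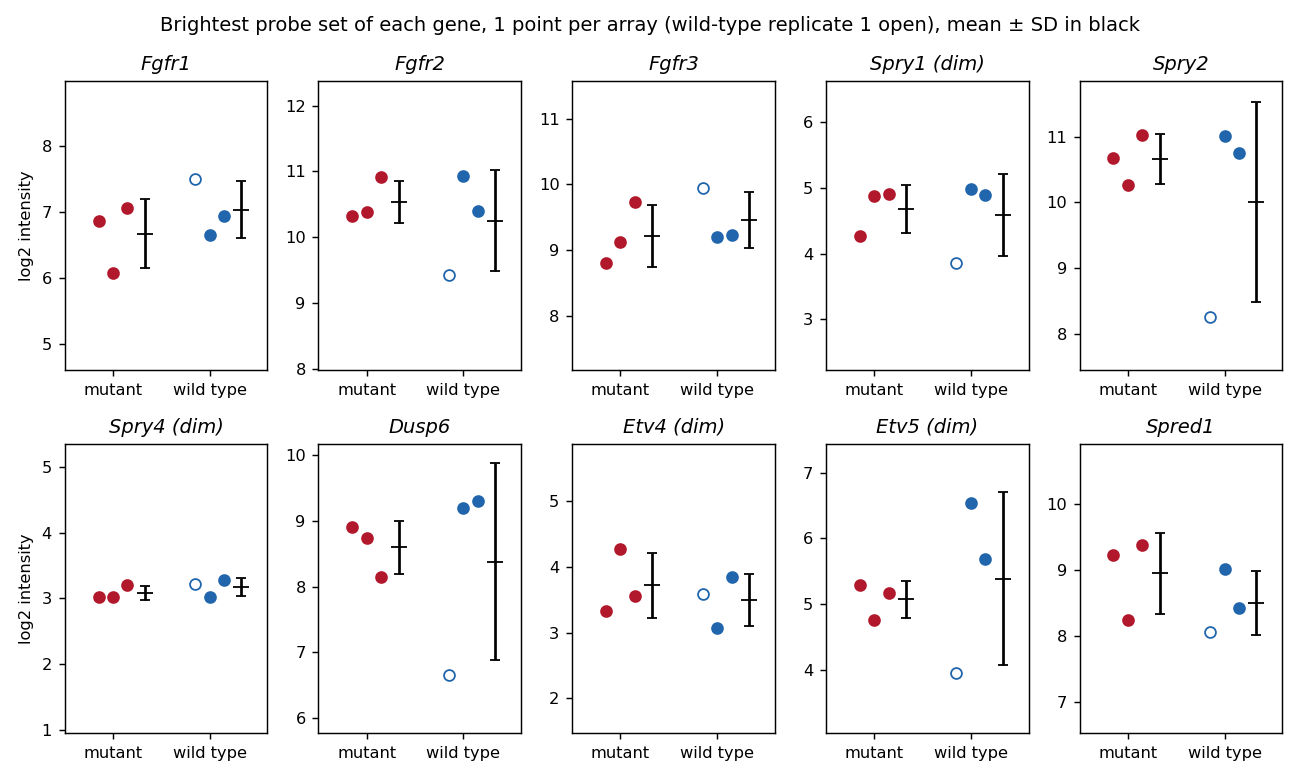
Log2 intensity of the brightest probe set of each of the 10 genes, with mutants on the left and wild types on the right of each panel, 1 point per array and the group mean ± SD in black (n = 3 each). Genes marked dim lay below the median probe set, each panel has its own offset but spans the same number of log2 units, and the open point, wild-type replicate 1, is the lowest of the 6 arrays for 6 of the 10 genes.

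Among the receptors, Fgfr2, which carries much of the FGF signal in developing epithelia, was read by a probe set (1433489_s_at) at 10.33, 10.38 and 10.91 in mutants, against 9.42, 10.93 and 10.40 in wild types (log2 level). The wild-type values enclosed the mutant ones, with wild-type replicate 1 about 1 unit below the rest. Mutants differed by 0.29 ± 0.41 (SE; limma adjusted p = 0.999) with all arrays and by -0.12 ± 0.28 once wild-type replicate 1 was left out. The other Fgfr2 probe set (1420847_a_at), dimmer than the median probe set, was at 4.10 to 4.58 in mutants and 4.0 to 4.53 in wild types, a difference of 0.01 ± 0.23.

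Fgfr3, a receptor known best for its role in growth cartilage, was at 8.79, 9.12 and 9.73 in mutants, against 9.95, 9.20 and 9.22 in wild types. Here wild-type replicate 1 was the highest array, and the mutants spread over a wider range than the other wild types. The difference was -0.24 ± 0.33 (SE), and 0.01 without that array. A dim second probe set of Fgfr3 (1425796_a_at) ranged from 3.59 to 5.38 in mutants and from 4.36 to 4.53 in wild types, with a difference of 0.07 ± 0.44.

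Fgfr1, the receptor that is broadly expressed in mesenchyme and neural tissue, was at 6.87, 6.08 and 7.07 in mutants, against 7.51, 6.66 and 6.94 in wild types. Mutant replicate 2 was the lowest array and wild-type replicate 1 the highest, and the groups overlapped. Mutants differed by -0.36 ± 0.35 (SE) over all arrays and by -0.13 with wild-type replicate 1 left out. The dim probe set of Fgfr1 (1425911_a_at) also had its lowest value in mutant replicate 2, at 4.32, and differed by -0.32 ± 0.34. Both Fgfr1 probe sets thus had lower means in mutants, by about 1 standard error, whereas those of Fgfr3 had opposite signs.

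The ERK feedback genes were examined next, and the stretches upstream of 4 of them are shown because the targeted factor AP-2alpha binds GC-rich DNA with the consensus GCCNNNGGC. RefSeq promoter windows of the GRCm38.p6 build, from 250 bases before to 50 after a gene's start, were matched by symbol for 7 of the 10 genes, as 9 windows. The AP-2 consensus, which reads the same on both strands, was found in 3 of these 9 windows (Etv5, Spry2 and Spred1), beside 16.6% of all 32851 windows. The core of the ETS factors, to which Etv4 and Etv5 belong, was searched as CCGGAA on both strands and lay in 1 of the 9, that of Spry2 and downstream of its start, beside 14.9% of all windows, with no overlap between the motifs. The 250 bases before the start follow, 5′ to 3′ on the gene's strand, with the AP-2 consensus in capitals. Etv5 and Spred1 hold it once, Spry2 holds it 2 times, and Dusp6, with no match, is shown because its values are set beside those of Etv5 here. For Etv5, which has a pair of windows, the one with the match is printed.
Etv5, chr16:22439571-22439820, minus strand: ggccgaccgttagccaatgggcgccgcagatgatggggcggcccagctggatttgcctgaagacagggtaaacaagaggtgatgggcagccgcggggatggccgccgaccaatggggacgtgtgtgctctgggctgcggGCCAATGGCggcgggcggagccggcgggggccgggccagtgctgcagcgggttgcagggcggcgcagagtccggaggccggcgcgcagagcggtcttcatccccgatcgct
Spry2, chr14:105896820-105897069, minus strand: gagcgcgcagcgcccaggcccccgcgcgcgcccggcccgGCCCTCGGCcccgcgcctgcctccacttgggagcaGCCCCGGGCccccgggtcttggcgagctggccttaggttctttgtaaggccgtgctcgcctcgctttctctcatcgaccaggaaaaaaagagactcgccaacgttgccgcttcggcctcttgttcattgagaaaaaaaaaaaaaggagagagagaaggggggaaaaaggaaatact
Spred1, chr2:117120821-117121070, plus strand: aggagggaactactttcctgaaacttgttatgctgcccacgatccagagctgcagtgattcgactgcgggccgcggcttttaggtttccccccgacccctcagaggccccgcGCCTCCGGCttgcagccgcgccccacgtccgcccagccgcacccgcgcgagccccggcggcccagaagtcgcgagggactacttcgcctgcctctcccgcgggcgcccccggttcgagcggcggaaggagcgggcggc
Dusp6, chr10:99262981-99263230, plus strand: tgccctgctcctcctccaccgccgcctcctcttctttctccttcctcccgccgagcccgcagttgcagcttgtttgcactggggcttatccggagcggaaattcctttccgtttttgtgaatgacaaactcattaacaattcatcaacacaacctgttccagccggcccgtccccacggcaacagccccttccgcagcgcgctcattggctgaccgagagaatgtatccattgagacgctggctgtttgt

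Etv5, an ETS factor that is transcribed in response to FGF, had 2 probe sets, both dimmer than the median probe set. The brighter one (1450082_s_at) was at 5.29, 4.75 and 5.17 in mutants, against 3.95, 6.53 and 5.68 in wild types. The 3 mutants lay close together, between wild-type replicate 1 and the other wild types. The difference was -0.32 ± 0.63 (SE; limma adjusted p = 0.999), with a 95% interval from -1.82 to 1.19. The second (1420998_at) was at 3.84, 2.79 and 2.73 in mutants, against 3.10, 4.05 and 3.95 in wild types, a difference of -0.58 ± 0.40, the lowest of the 18 and the one of lowest unadjusted p (0.195).

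Dusp6, the phosphatase that removes phosphate from ERK in the cytoplasm, was at 8.92, 8.74 and 8.15 in mutants, against 6.65, 9.20 and 9.30 in wild types. Wild-type replicate 1 was far below the other arrays, and every mutant was below both other wild types. The difference was 0.22 ± 0.72 (SE), with a 95% interval from -1.51 to 1.94.

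Without wild-type replicate 1, the mutants were below both other wild types for Dusp6, with a log2 difference of -0.65 ± 0.27 (SE), and for both Etv5 probe sets, with differences of -1.04 ± 0.31 and -0.88 ± 0.37. The printed promoter window of Etv5 holds the AP-2 consensus, while the other window of Etv5 and that of Dusp6 do not. A link between the motif and these differences was not tested. The Dusp6 and Etv5 probe sets are 3 of the 18, whereas mutants were apart below wild types for 10.6% of all probe sets and apart in either direction for 20.5%. One probe set, 1450082_s_at of Etv5, had an unadjusted p under 0.05 (0.0157), beside 5.46% of all probe sets. No call followed: the lowest limma adjusted p of the 18 was 0.796 without that array, and 0 probe sets of the whole table passed.

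Spry2, a Sprouty protein that restrains RAS-ERK signalling downstream of the receptor, was at 10.67, 10.26 and 11.03 in mutants, against 8.26, 11.01 and 10.74 in wild types. Its probe set (1436584_at) had the widest range of the 18 over all arrays, 2.77, and a range of 0.77 without wild-type replicate 1. The difference was 0.65 ± 0.72 (SE; 1.57-fold) with all arrays and -0.22 ± 0.27 without it. A second, dim probe set of Spry2 (1421656_at) was between 2.83 and 3.56 on all arrays and did not carry the low value of that array.

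Spred1, a membrane-bound inhibitor of RAS activation, had 3 probe sets, all brighter than the median. The brightest (1423162_s_at) was at 9.22, 8.25 and 9.39 in mutants, against 8.06, 9.02 and 8.42 in wild types. Wild-type replicate 1 was the lowest array on each of the 3 Spred1 probe sets, and mutant replicate 2 the lowest mutant on each. The differences were 0.45 ± 0.39 (SE) for the brightest, 0.39 ± 0.40 for 1423160_at and 0.09 ± 0.33 for 1423161_s_at. Without wild-type replicate 1 they were 0.23 ± 0.39, -0.07 ± 0.19 and -0.16 ± 0.29. Each of these lay within 1 standard error of 0, so no direction could be read for Spred1 without that array.

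**Figure D2:**
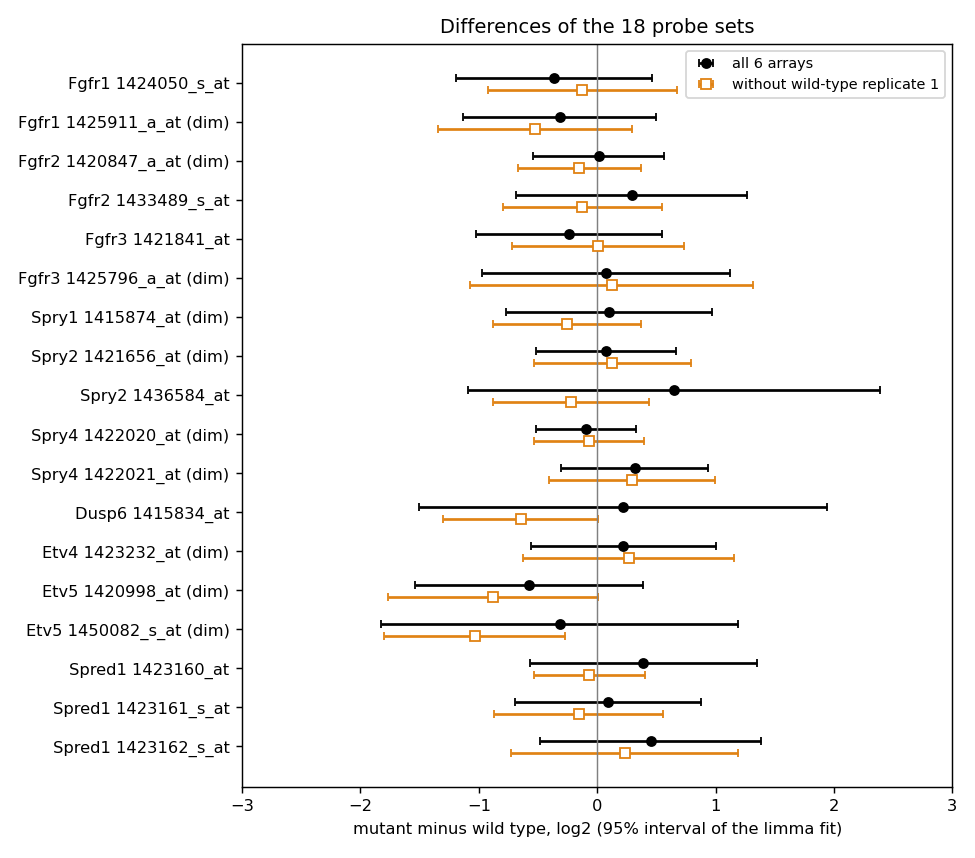
Log2 difference of each of the 18 probe sets, mutant minus wild type, with the 95% interval of the limma fit, for all 6 arrays (black circles) and without wild-type replicate 1 (orange squares). All black intervals include 0, and without that array the squares of Dusp6 and Etv5 sit at -0.65, -0.88 and -1.04.

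The other feedback genes were read by dim probe sets only. Spry1, a Sprouty protein that acts in lens and kidney development, was at 4.27, 4.88 and 4.91 in mutants, against 3.86, 4.99 and 4.89 in wild types, a difference of 0.10 ± 0.36 (SE). Without wild-type replicate 1 the sign turned, to -0.26 ± 0.26. Its order of arrays resembled that of Fgfr2, with wild-type replicate 1 lowest and mutant replicate 1 next. Etv4, the relative of Etv5, ranged from 3.32 to 4.28 in mutants and from 3.07 to 3.84 in wild types, a difference of 0.22 ± 0.33, or 0.26 with wild-type replicate 1 left out. The Spry4 probe sets, which read another Sprouty inhibitor, lay between 2.5 and 3.35 in mutants and between 2.56 and 3.28 in wild types, with differences of -0.09 ± 0.18 and 0.32 ± 0.26 (-0.07 and 0.29 without wild-type replicate 1). At such levels differences can be compressed, so the values of Etv4 and Spry4 place little limit on a change.

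Leaving out wild-type replicate 1 turned the sign of 8 of the 18 differences and the median of the 18 to -0.12, beside -0.01 over all probe sets. With all arrays 12 probe sets were higher and 6 lower in mutants, and without it 6 were higher and 12 lower. Wild-type replicate 1 was more than 2 log2 units below the mean of the other wild types for Spry2 (-2.62), Dusp6 (-2.59) and Etv5 (-2.16). These are 3 of the 18 probe sets, beside 4.13% of all probe sets and 7.65% of those brighter than the median.

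**Figure D3:**
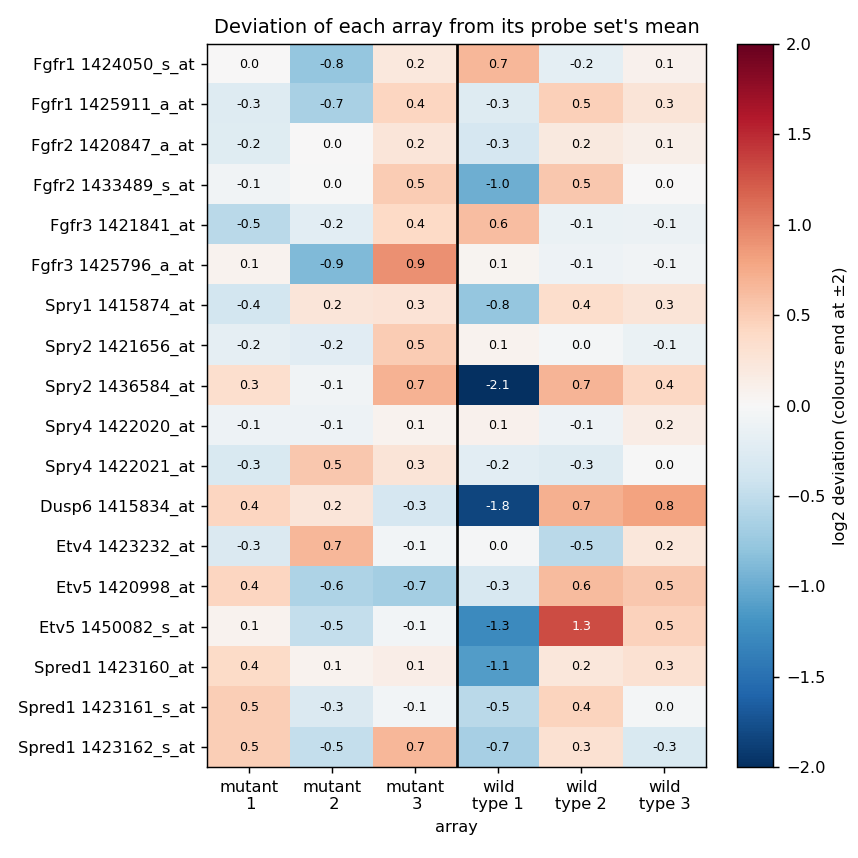
Deviation of each array (columns, mutants left of the black line) from the mean over the 6 arrays of its probe set (rows), in log2 units. Spry2 1436584_at, Dusp6 and Etv5 1450082_s_at show the lowest values in wild-type replicate 1, and Fgfr1 1424050_s_at and Fgfr3 1421841_at are highest there.

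Signs of RNA quality and of other cell types were measured on the same arrays. The difference between the 3′ and 5′ control probe sets was 1.49 in wild-type replicate 1 for Pcx, above 0.45 to 0.88 on the other arrays, but for Gapdh (1.07) and Actb (1.54) it lay within their range. Of 15 listed retina and neuron markers 13 were measured, 11 brighter than the median, and all 13 had higher means in mutants, with a median difference of 1.13. Without wild-type replicate 1, 12 of the 13 were higher, with a median of 0.53. Their summed intensity was 4299 to 5846 in mutants and 1936 to 4016 in wild types. The mean log2 level of that list was 6.11 in wild-type replicate 1, the array with low Spry2, Dusp6 and Etv5, against 6.80 and 7.16 in the other wild types. Rcvrn and Syt1 were the dim markers of that list. The part of these signals in the values of the 10 genes was not tested, and in whole-lens RNA fewer cells of a type and less RNA per cell cannot be told apart.

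Macrophage markers (14 of 14 measured, 7 bright) summed to 750.5 to 3095 in mutants and 698.2 to 751.9 in wild types, with the highest mean log2 level, 6.39, in mutant replicate 2, the array of lowest Fgfr1. Higher means in mutants were found for 13 and lower for 1, with a median difference of 0.74 (13, 1 and 0.66 without wild-type replicate 1). Periocular mesenchyme markers (13 of 14 measured, 7 bright) summed to 522.0 to 1077 in mutants and 388.9 to 615.9 in wild types. Of these, 12 had higher means in mutants and 1 lower, with a median of 0.47 (10, 3 and 0.66 without wild-type replicate 1). Lens fibre markers (11 of 14 measured, 10 bright) summed to 80739 to 88310 in mutants and 84815 to 102400 in wild types, and 10 of the 11 had lower means in mutants (11 without wild-type replicate 1), with a median difference of -0.15. The crystallin Cryaa was at 13.63 to 13.76 in mutants and 13.67 to 13.81 in wild types. The filament protein Bfsp1, the one fibre marker at a limma unadjusted p under 0.05, differed by -0.65 ± 0.22 (SE; 0.0246). Without wild-type replicate 1 Bfsp1 differed by -0.57, and 0 fibre markers reached that p. Lens epithelium markers (5 of 5 measured, 4 bright) summed to 1858 to 2038 in mutants and 1401 to 3106 in wild types. Of the 5, 4 had lower means in mutants (5 without wild-type replicate 1), with a median of -0.71. A limma unadjusted p under 0.05 was reached by 3, beside 3.85% of all genes. They were the cadherin Cdh1 at -1.29 ± 0.30 (SE), the transporter Slc38a3 at -1.04 ± 0.40 and the dim transcription factor Foxe3 at -0.71 ± 0.29. Without wild-type replicate 1 they differed by -1.56, -0.68 and -0.49, and of the 3 only Cdh1 stayed under 0.05. The count was then 2, with Pdgfra, beside 6.29% of all genes. The part of these cells in the values of the 10 genes was not tested. In mutants 4 of 6 pigment cell, 4 of 7 endothelium, 7 of 8 corneal and skin epithelium and 2 of 4 red blood cell markers had higher means, and limma called 0 genes in all these lists. A limma unadjusted p under 0.05 was reached by 4 retina and neuron, 2 pigment cell, 2 macrophage and 1 periocular mesenchyme markers. All were higher in mutants, beside 3.85% of all genes in either direction. Without wild-type replicate 1 the counts were 5, 3, 1 and 3, beside 6.29% of all genes. Of these, 1 pigment cell and 1 mesenchyme marker were lower in mutants. The endothelium, corneal and skin, and red blood cell lists had 0 both times.

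The patterns most like those of the 10 genes were found by the root mean square distance between log2 profiles over the 6 arrays, each centred on its own mean. Clone and gene model names were passed over in naming the nearest gene, but they count in the medians and ranks. Among the rest the nearest to Dusp6 was Dnajc24, at a distance of 0.07, where the median of all 12392 other genes was 0.97. Spry2 and Etv5 were nearest to Nol7 (0.10) and Fam169a (0.12). The nearest to Fgfr2 was Aldh6a1 (0.06), to Fgfr3 Car11 (0.09), to Fgfr1 Eif3d (0.11), to Spry1 Daglb (0.09) and to Spred1 Ugt8a (0.11). For the dim Etv4 and Spry4 they were Lgals1 (0.08) and Syk (0.03). In a search of 12392 genes over 6 arrays a small lowest distance is to be had for any gene. These pairs therefore do not show shared regulation. Distances were not scaled, so a flat profile lies nearer to all genes (median 0.33 for Spry4). Within the 10 genes, Fgfr2 and Spry1 were closest to each other (0.24), and Spry1 ranked 318 among all genes by its distance from Fgfr2. Dusp6 and Spry2 were 0.48 apart, and Spry2 ranked 657 from Dusp6. So each of the 10 had many other genes nearer to it than any of the 9 others. Wild-type replicate 1 was the lowest array for 6 of the 10, namely Fgfr2, Spry1, Spry2, Dusp6, Etv5 and Spred1, beside 24.2% of all probe sets.

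The rest of the pathway was read through lists chosen by role, with each gene's brightest probe set, and 0 genes of any list passed limma's test. The FGF ligand list takes in family members that stay inside the cell, such as Fgf14. Of its 22 genes 11 were higher and 11 lower in mutants, with a median difference of 0.00, beside -0.01 over all genes. An unadjusted p under 0.05 was reached by 5 of the 22, beside 3.85% of all genes, and 4 of the 5 were higher in mutants; Fgf9, Fgf15 and Fgf1 among them are named after their values were seen. Without wild-type replicate 1 the count was 2 (Fgf3 and Fgf1), beside 6.29% of all genes, with 15 of the 22 higher and 7 lower.

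Fgf1, a ligand that can induce fibre differentiation in lens explants, was the lower one, at 4.85, 5.87 and 5.19 in mutants, against 5.81, 6.18 and 6.09 in wild types. Mutant replicate 2 overlapped with the wild types, and the difference was -0.72 ± 0.29 (SE; limma unadjusted p = 0.0463, adjusted p = 0.999). A dim second probe set of Fgf1 differed by -0.13 ± 0.18.

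Fgf3, another secreted ligand, was at 6.28, 5.92 and 5.83 in mutants, against 5.6, 4.57 and 5.10 in wild types, with every mutant above every wild type and a difference of 0.92 ± 0.30 (SE). Fgf9, a ligand made by the neural retina, was at 6.90, 6.53 and 6.66 in mutants, against 5.85, 6.07 and 6.37 in wild types. Its difference was 0.60 ± 0.21, or 0.47 without wild-type replicate 1. Fgf15, a ligand of the developing brain and retina, was at 10.03, 7.94 and 9.22 in mutants, against 7.44, 8.14 and 7.02 in wild types, a difference of 1.53 ± 0.56. For Fgf9 the groups did not overlap, and for Fgf15 mutant replicate 2 lay below wild-type replicate 2.

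Fgf14, a member of the family that stays inside neurons and modulates sodium channels, was at 7.51, 6.64 and 7.71 in mutants, against 4.15, 6.91 and 4.73 in wild types. One wild type lay among the mutants, and the difference was 2.02 ± 0.72 (SE), or 1.47 without wild-type replicate 1. Its dim second probe set differed by -0.12 ± 0.17. The higher values of Fgf15, Fgf9 and Fgf14 stood beside the higher retina and neuron markers given above, whose part in them was not tested.

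Of 21 measured co-receptors, other receptors and heparan sulfate enzymes, 12 were higher and 9 lower, with a median of 0.02. Fgfrl1, a receptor that lacks the kinase domain, was at 7.46, 7.84 and 8.47 in mutants, against 8.86, 8.32 and 9.45 in wild types, a difference of -0.96 ± 0.38 (SE; limma adjusted p = 0.999). Hs2st1, which adds sulfate to heparan sulfate chains, was at 10.42, 9.83 and 10.33 in mutants, against 9.23, 9.86 and 9.58 in wild types, a difference of 0.64 ± 0.26. In both genes 1 mutant overlapped with the wild types, and neither had an unadjusted p under 0.05 without wild-type replicate 1 (differences of -0.97 and 0.48).

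Within the RAS-ERK cascade 7 of 17 measured genes were higher and 10 lower, with a median of -0.15. The 2 of lowest p were the RAS activator Sos1, at -0.57 ± 0.41 (SE; -0.11 without wild-type replicate 1), and the ERK-activated kinase Rps6ka3, at 0.33 ± 0.24. The probe sets of Sos1 disagreed, with a dim one at 0.51 ± 0.34. Among 18 measured other feedback and target genes 8 were higher and 10 lower, with a median of -0.06. The 2 of lowest p were the cyclin Ccnd1, at 0.39 ± 0.23 (0.19 without wild-type replicate 1), and the dim Myc, at -0.32 ± 0.19. The other Ccnd1 probe sets, both bright, disagreed, at -0.10 ± 0.31 and 0.78 ± 0.69. Of the cascade and of these other target genes, 0 reached an unadjusted p under 0.05 with all arrays. Without wild-type replicate 1 there were 3 of the 17 and 2 of the 18, beside 6.29% of all genes, and limma still called 0 after adjustment. They are named after their values were seen. In the cascade these were the adaptors Shc1 (-0.99 ± 0.19, SE), Gab1 (-0.53 ± 0.20) and Crk (-0.67 ± 0.27), and among the other targets Spred2, a relative of Spred1 (-1.02 ± 0.31), and the RAS GTPase activator Rasa2 (0.61 ± 0.23).

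**Figure D4:**
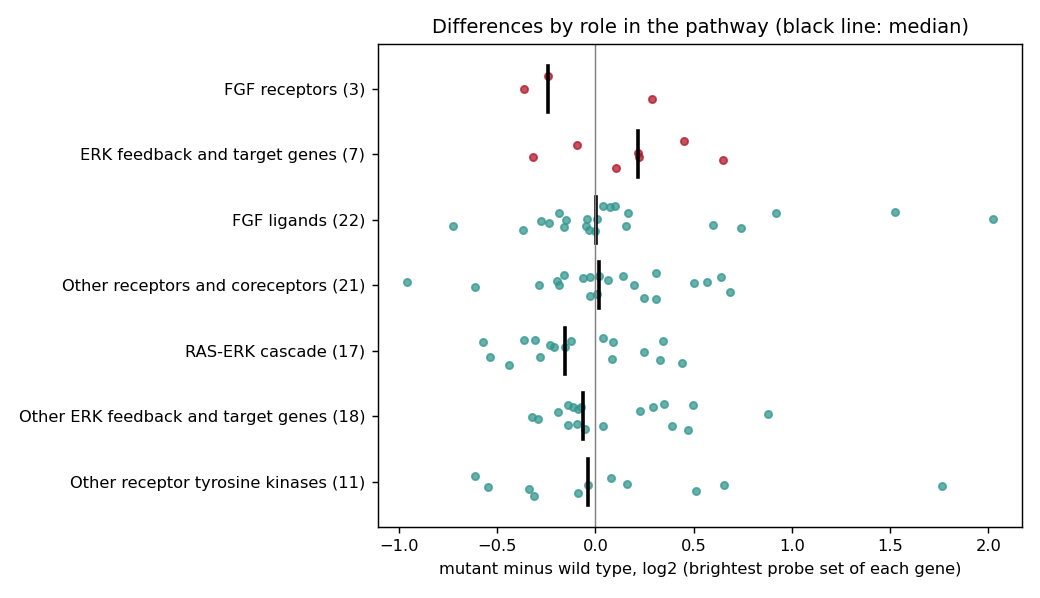
Log2 difference, mutant minus wild type, of each gene's brightest probe set (points, spread vertically for legibility) by role in the pathway, with the number measured in brackets and the median as a black line. The FGF receptors and feedback genes (red) lie between -0.36 and 0.65. The points farthest right in the FGF ligand list are Fgf14, which stays inside cells, at 2.02 and Fgf15 at 1.53.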

How the data were processed

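The deposited values are probe set intensities on a linear scale, 1 column per array, which the authors made with RMA per the submitters' processing notes, whose version and settings are not given; nor do the sources used here give the step that led to a linear scale. Quantile normalisation within RMA can remove shifts of a whole array and compress differences of dim probe sets. Per the labels, RNA was isolated with a Qiagen kit and amplified with a Nugen Ovation system.

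The log2 of each intensity was taken with no pseudocount; 64 array controls were left out and 0 columns of sample values were unused. Gene names came from the platform annotation of 2016 (20380 with 1 symbol, 691 with several, 1555 with none), of which 20351 matched RefSeq by Entrez ID. Dim means a mean log2 below the median probe set, 5.26. A gene is represented by its brightest probe set.

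Tests used limma 3.58.1 in R 4.3.3 (lmFit, eBayes, two-sided, no covariate, Benjamini-Hochberg over 22626 probe sets, threshold 0.05); differences carry the standard error of the fit. With 3 arrays against 3 an exact permutation test cannot go below p = 0.1, so none is given. The number of arrays limits the precision. On simulated data of 22626 probe sets the fit recovered 20%, 42%, 88% and 88% of log2 changes of 1, 2, 3 and 4, with 8 false calls. The simulated noise was normal and independent between probe sets and arrays, with no array standing apart as wild-type replicate 1 does. Recovery on the real arrays may therefore differ. Alternatives were the replicate block, median centring, quantile normalisation, a pseudocount of 16, leaving out dim probe sets, array weights, a trended prior, each array left out, and a gene's probe sets averaged; leaving out wild-type replicate 1 with mutant replicate 2 was added after seeing the data. Across alternatives, a sign was read only where a difference exceeded its standard error.

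The genes named are all probe sets of the 10 genes, the 2 genes of lowest p of each pathway list and, for each of the 10, the gene of most similar pattern; others, named where a count or a marker list is described, were chosen after their values were seen. The 10 genes and the lists were chosen with earlier results of these data known.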

Additional observations from a re-analysis of the deposited data

How the results depend on the processing

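None of the 18 probe sets was called under any of the 15 alternatives run (0 each time); the lowest limma adjusted p was 0.289, with array weights, and 0.699 when single arrays were left out (wild-type replicate 2). Array weights, which gave wild-type replicate 1 a weight of 0.224 and wild-type replicate 3 a weight of 5.65, called 7 probe sets of the whole table where all other alternatives called 0, and none of the 7 belongs to the 10 genes. The replicate number as a block called 0 probe sets (lowest adjusted p of the 18, 0.999). Deviations of same-numbered arrays correlated at -0.07, -0.26 and -0.16, so no pairing by number was visible, though so few arrays cannot exclude it. Of 252 single values over the alternatives, 32 changed sign, 8 of them without wild-type replicate 1, and 0 changed sign while more than 1 standard error from 0 both times. Most of the 18 differences lay within 1 standard error of 0 with all arrays and could not enter that last count. Dusp6, for instance, moved from 0.22 ± 0.72 to -0.65 ± 0.27 without wild-type replicate 1. The 0 therefore does not show that signs were stable. Without mutant replicate 1 the Etv5 probe set 1420998_at differed by -0.94 ± 0.35 (SE), and without mutant replicate 2 the brightest Spred1 probe set by 0.80 ± 0.34. Leaving out both wild-type replicate 1 and mutant replicate 2, Etv5 1450082_s_at differed by -0.88 ± 0.34. Median centring moved the median difference of all probe sets from -0.02 to -0.08. Signal over background limits the 10 dim probe sets.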

Other observations

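Receptor tyrosine kinases outside the FGF family, which feed the same RAS-ERK cascade, were measured for 11 of 11 listed genes. In mutants 5 were higher and 6 lower, with a median log2 difference of -0.04, and limma called 0 (2 at an unadjusted p under 0.05, beside 3.85% of all genes). Without wild-type replicate 1 that count was 3, beside 6.29% of all genes. Egfr, the receptor of epidermal growth factor, was at 5.83, 5.66 and 5.86 in mutants, against 3.04, 5.26 and 3.76 in wild types, a difference of 1.76 ± 0.54 (SE; 1.28 without wild-type replicate 1), on a probe set dimmer than the median. Every mutant was above every wild type, and the 3 mutants lay close together. The other Egfr probe sets, 4 in number and all dim, differed by -0.38 to -0.07, so they did not share its direction. Met, the receptor of hepatocyte growth factor, was dim too, at 2.47, 2.69 and 2.57 in mutants, against 3.19, 3.02 and 3.15 in wild types.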
